A study of Mus musculus with 20 samples.

Results

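The genes described here are 77 of the 21844 genes in an RNA sequencing table of mouse hindlimb muscle, those with a higher level in samples labelled as muscle Bmal1 knockouts than in vehicle samples, both in sedentary and in trained muscle. A gene was taken when its median CPM (its count scaled to the same total in every library) was higher in the knockout columns by a log2 ratio of at least 0.8 in both training states, with 0.5 added to each median. The median of the knockout sedentary columns also had to be at least 2 CPM. Of all genes, 12391 reached that median, 86 met all the limits, and 9 of these (Nfil3, Npas2, Prss55, Lgr6, Krt18, Unc13c, Sln, Gm40841 and Gm42971) were left out by name. The genes were thus chosen by their measured levels in knockout and vehicle samples, and that difference is given for them as a description, without a test. Every mouse carried the genotype Cre+:iMSBmal1 fl/fl (a Cre recombinase and Bmal1 flanked by loxP sites), the vehicle controls included. The labels name neither the promoter of the Cre nor the inducing agent, and give no age. The 4 groups of 5 libraries were labelled Vehicle without exercise, iMSBmal1KO without exercise, Vehicle with exercise training and iMSBmal1KO with exercise training, where training was 6 weeks of daily treadmill running. They are called vehicle sedentary, knockout sedentary, vehicle trained and knockout trained below, after their labels. The muscle is given as gastrocnemius in the source field and the design text and as tibialis anterior in another field, and the time after the last bout as 48 h in the labels and 47 h in the design text.

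BMAL1 pairs with CLOCK to activate genes that carry E-box sequences, among them the Per, Cry, Nr1d (REV-ERB) and Dbp genes, whose products in turn repress or tune other genes around the day. The REV-ERB proteins repress genes at elements they share with the ROR receptors, and DBP and NFIL3 act with opposite sign at D-box elements. In skeletal muscle the clock is known for its ties to fuel use, calcium handling, fibre type and the upkeep of the nerve-muscle junction.

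Library totals lay between 1.06e+07 and 1.92e+07 estimated counts. In 2 pairs of knockout-trained libraries, 1 with 4 and 3 with 5, the noise-scaled difference of highly counted genes was at most 1.25 times that of genes with few counts, against 2.31 times or more in every other pair of libraries. The members of a pair were counted once, which leaves n = 3 in that group and 18 samples in all. Vehicle-trained library 2 stood apart. Its summed level of 10 muscle fibre markers was 53142 CPM against 73181 to 85458 CPM in the other 4 libraries of its group, and 30.1% of all tested genes lay more than 2-fold from the mean of those 4. Of the 77 genes, 40 lay that far away in this library. Arntl, the symbol the table uses for the targeted gene, was not lower in the sedentary samples labelled knockout. It averaged 13.2 ± 3.28 CPM (SD, n = 5) in knockout sedentary and 6.79 ± 0.890 CPM (SD, n = 5) in vehicle sedentary muscle, with p = 0.00794 by a two-sided exact permutation test. In trained muscle the knockout mean was 10.9 ± 4.45 CPM (SD, n = 3) and the vehicle mean 31.6 ± 56.3 CPM (SD, n = 5), with a two-sided exact permutation p of 0.786. Vehicle-trained library 2 held 132 CPM, and without it the vehicle mean was 6.45 ± 0.156 CPM (SD, n = 4), below the knockout mean, with an exact permutation p of 0.0571. The lowest knockout value, 8.04 CPM, then lay above the highest vehicle value, 6.68 CPM. This p is the smallest that the two-sided test can give with 3 and 4 samples. Since a count over the whole gene does not separate the floxed part from the rest, it does not check the deletion, and every direction below goes by the label of the sample. Nothing in the labels says that libraries came from separate mice, so p-values measure the spread between these samples.

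The 77 genes ranged in ratio of medians from a log2 of 0.83 to 3.53 in sedentary muscle, with a median of 1.23, and from 0.80 to 3.15 in trained muscle, with a median of 1.21. Over the 12391 genes at or above 2 CPM the medians were 0.07 and -0.08. Per sample, the mean of log2(CPM + 0.5) over the 77 genes lay between 3.14 and 3.30 in vehicle sedentary, between 4.46 and 4.70 in knockout sedentary, between 3.09 and 3.18 in vehicle trained and between 4.27 and 4.73 in knockout trained muscle. In sedentary muscle, every knockout sample lay above every vehicle sample for 70 of the 77 genes, where 5.63% of all tested genes are separated in that direction. The 7 genes with overlap were Cyp4f39, Apold1, Hsbp1l1, Exoc3l4, Gm39469, Dok5 and Bcl6b. In trained muscle 52 of the 77 were separated, with a background of 3.98%, and without vehicle-trained library 2 the count was 70, with a background of 6%. Adora1, Cyp4f39, Apold1, Pnpla3, Exoc3l4, Igsf1 and Gm39469 overlapped in trained muscle with or without this library. Cdkn1a, Tead4, Rgs2, Dusp5, Gm10382, Cpne2, Agt, Ppp1r27 and Gramd1b overlapped only with it. So did Igf2bp2, Chrnb1, Slc41a3, Auts2, Csf2rb2, Clpx, Pim1, Rims4 and Abca4. The separations in both states follow from how the genes were chosen and are no evidence of their own. In bulk muscle, more cells of a type and more RNA per cell cannot be told apart.

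**Figure D1:**
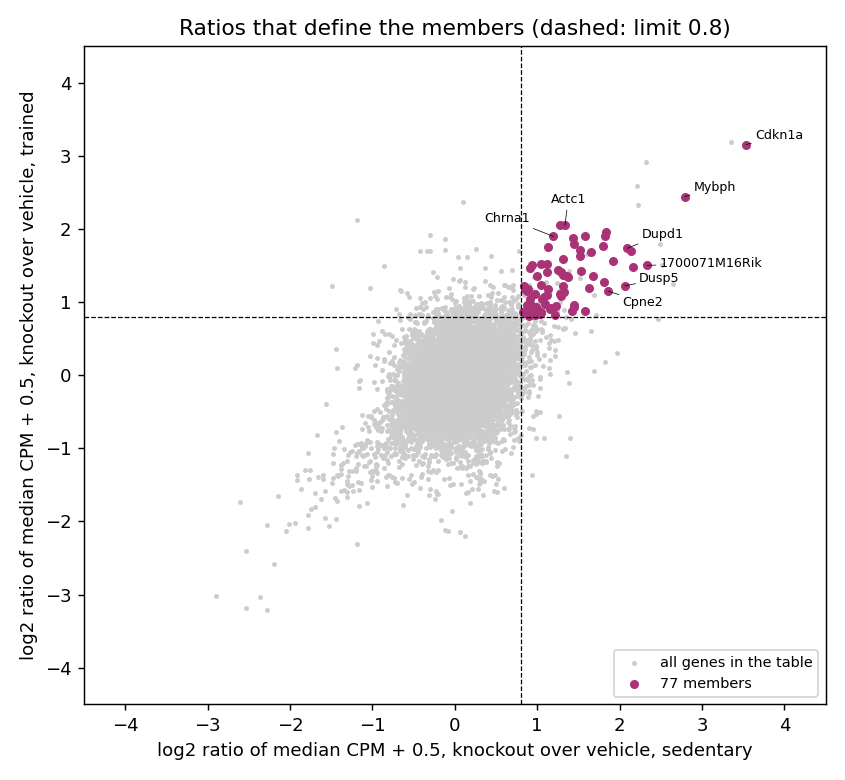
Each point is a gene, with the log2 ratio of median CPM + 0.5 in knockout over vehicle columns in sedentary muscle on the x axis and in trained muscle on the y axis, and the 77 genes described here are in purple. Cdkn1a stands farthest out at 3.53 and 3.15, followed by Mybph at 2.79 and 2.44, and grey points past both dashed limits of 0.8 are genes left out by name or by the 2 CPM minimum.

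**Figure D2:**
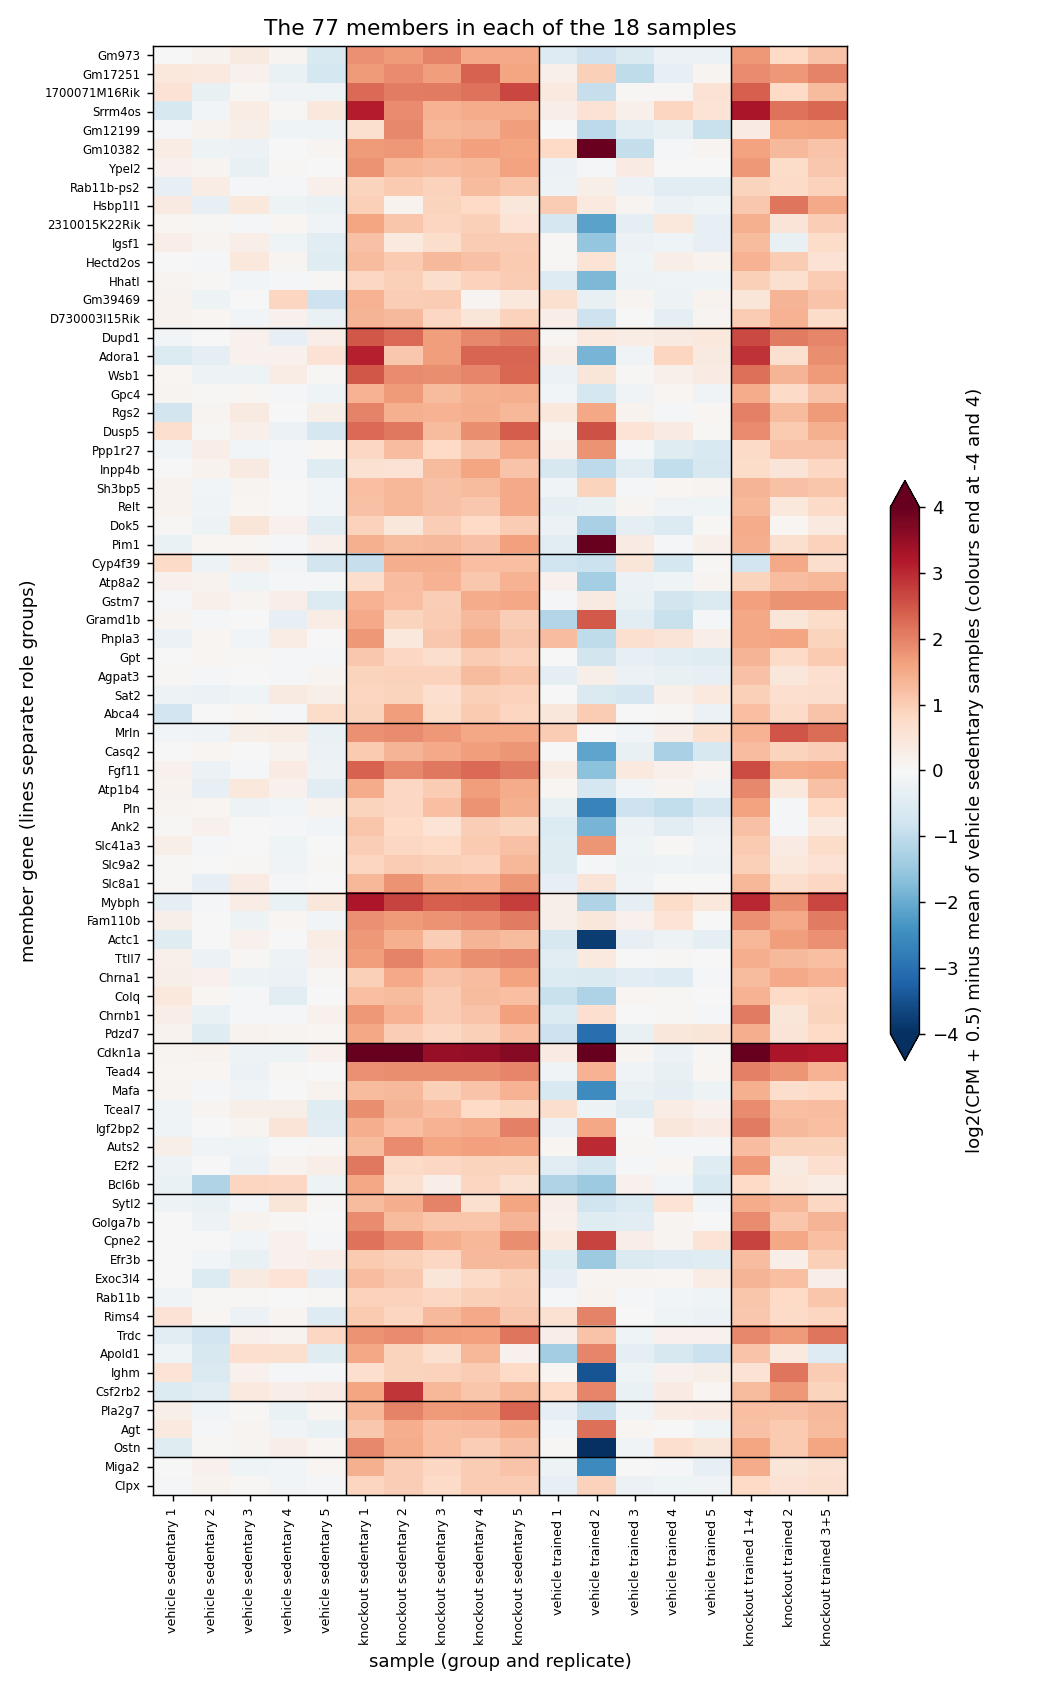
Each row is 1 of the 77 genes and each column 1 of the 18 samples, and the colour gives log2(CPM + 0.5) minus the mean of the 5 vehicle sedentary samples, with black lines between groups of samples and between groups of genes by function. Knockout sedentary and knockout trained columns are red for nearly all genes, while the column of vehicle-trained library 2 holds both the deepest red and the deepest blue cells among vehicle samples.

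Most of the genes were of low or middling level. Their knockout sedentary medians ran from 2.06 CPM for Abca4 to 1002 CPM for Ttll7, with 17 genes under 5 CPM and 17 at 100 CPM or more. Per kilobase of merged exons, the highest were Ppp1r27 at 229, Mybph at 160, Ighm at 157 and Ostn at 126 CPM per kb in that group. By GENCODE M21, 66 of the 77 are protein coding, and they lie on 19 chromosomes with at most 8 on any of them. The genes nearest the limit on the inner side were Abca4, Rims4, Pim1, D730003I15Rik and Clpx, whose smaller log2 ratios were 0.80, 0.82, 0.83, 0.83 and 0.84. Just outside were Olfm1 at 0.7995, Klhl30 at 0.7994, Wdr6 at 0.79, Plin5 at 0.78 and Fabp3-ps1 at 0.77. Below, the genes are taken by what they are known to do, and those named for their function alone were chosen after their values were seen.

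Cell cycle and transcription hold the largest ratio of all, that of Cdkn1a, the inhibitor of cyclin-dependent kinases that marks cells leaving the cycle and responding to stress. Cdkn1a stood at 9.59, 9.98, 7.62, 7.63 and 10.2 CPM in the 5 vehicle sedentary samples and at 157, 151, 106, 108 and 116 CPM in the 5 knockout sedentary samples. It stood at 11.3, 801, 9.72, 7.57 and 9.25 CPM in the vehicle trained samples and at 207, 89.4 and 86.9 CPM in the knockout trained samples. The lowest knockout value was thus far above every vehicle value except that of vehicle-trained library 2, which was the highest of all 18. The ratio of medians was 11.6-fold in sedentary and 8.88-fold in trained muscle. The mean over a group moves with such a value. The log2 knockout difference fitted by edgeR in trained muscle was -0.46 for Cdkn1a with this library and 3.79 without it. With this library, 4 of the genes described here had a fitted trained difference below 0. They were Cdkn1a, Gm10382 (-0.73), Auts2 (-0.24) and Pim1 (-1.52). Without it, Gm10382, Auts2 and Pim1 stood at 1.84, 1.12 and 1.07, and none of the genes described was below 0.

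Tead4, a TEAD-family factor that acts with YAP and TAZ and in muscle differentiation, was even across samples. It stood at 3.56, 3.53, 2.77, 3.46 and 3.36 CPM in vehicle sedentary and at 13.02, 13.5, 13.3, 13.5 and 14.2 CPM in knockout sedentary samples. In trained muscle it was 2.95, 9.58, 2.95, 2.62 and 3.57 CPM with vehicle and 15.04, 12.4 and 9.45 CPM in the knockout samples. Only the vehicle-trained library 2 value, 9.58 CPM, reached into the knockout range. The other 6 genes of this kind had ratios between 1.79-fold and 2.99-fold in sedentary muscle. Auts2, a regulator that works with Polycomb proteins, had medians of 10.2 and 31.5 CPM in vehicle and knockout sedentary muscle and 10.3 and 19.3 CPM in trained muscle. In vehicle-trained library 2 it stood at 83.0 CPM, above every knockout trained sample. E2f2, a factor of cell cycle entry, was 14.4 CPM in knockout sedentary sample 1 and between 5.45 and 5.96 CPM in the other 4, against 2.45 to 3.73 CPM with vehicle. Mafa, a factor best known from insulin-producing cells, had medians of 48.2 and 120.3 CPM in sedentary and 37.9 and 88.9 CPM in trained muscle. Igf2bp2, an RNA-binding protein, and Tceal7 had sedentary ratios of 2.73-fold and 2.11-fold. Bcl6b, a transcriptional repressor, overlapped in sedentary muscle, at 2.00 to 9.82 CPM with vehicle and 6.42 to 16.4 CPM in the knockout.

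The promoters of 5 genes are shown because these genes stand for the main groups (cell cycle, contractile, junction, calcium, signalling) and hold 1 or more of 3 of the motifs that were searched for. Each runs from 250 bases before to 50 bases after a RefSeq start site, on build GRCm38.p6, and is printed 5′ to 3′ on the strand of the gene. Capitals mark CAGCTG (the E-box form that myogenic factors such as MYOD bind), CACGTG (the E-box of BMAL1 and CLOCK) and TGACGTCA (the cAMP response element).
Cdkn1a promoter, chr17:29090729-29091028, plus strand: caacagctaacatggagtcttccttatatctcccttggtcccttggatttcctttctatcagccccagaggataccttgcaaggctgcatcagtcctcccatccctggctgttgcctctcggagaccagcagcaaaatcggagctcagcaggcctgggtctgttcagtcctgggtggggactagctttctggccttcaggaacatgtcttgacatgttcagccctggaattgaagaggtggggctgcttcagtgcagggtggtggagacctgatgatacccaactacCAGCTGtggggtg
Mybph promoter, chr1:134193198-134193497, plus strand: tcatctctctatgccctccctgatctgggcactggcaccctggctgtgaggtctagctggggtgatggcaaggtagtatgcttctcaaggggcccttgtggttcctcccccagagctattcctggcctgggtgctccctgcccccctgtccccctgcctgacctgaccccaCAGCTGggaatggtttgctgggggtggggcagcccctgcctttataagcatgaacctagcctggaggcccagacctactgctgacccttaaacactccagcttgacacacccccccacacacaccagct
Chrna1 promoter, chr2:73580289-73580588, minus strand: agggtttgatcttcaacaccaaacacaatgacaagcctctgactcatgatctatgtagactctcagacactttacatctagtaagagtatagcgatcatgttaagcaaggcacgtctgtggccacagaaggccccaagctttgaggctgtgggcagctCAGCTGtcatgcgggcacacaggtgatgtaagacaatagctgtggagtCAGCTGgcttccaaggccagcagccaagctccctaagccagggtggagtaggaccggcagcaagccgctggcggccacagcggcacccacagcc
Pln promoter, chr10:53337436-53337735, plus strand: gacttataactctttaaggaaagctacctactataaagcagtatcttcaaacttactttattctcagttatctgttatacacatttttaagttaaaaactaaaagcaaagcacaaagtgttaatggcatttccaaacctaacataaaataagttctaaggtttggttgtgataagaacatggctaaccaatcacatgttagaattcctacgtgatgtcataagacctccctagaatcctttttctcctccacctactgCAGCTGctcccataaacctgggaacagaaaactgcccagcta
Wsb1 promoter, chr11:79254646-79254945, minus strand: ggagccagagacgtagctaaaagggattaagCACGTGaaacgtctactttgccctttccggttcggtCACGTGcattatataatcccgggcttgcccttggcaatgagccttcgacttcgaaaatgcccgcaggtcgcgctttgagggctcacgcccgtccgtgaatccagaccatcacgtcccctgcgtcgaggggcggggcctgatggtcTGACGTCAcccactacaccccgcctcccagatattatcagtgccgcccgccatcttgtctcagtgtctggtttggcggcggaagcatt
In these windows CAGCTG begins 79 bases before the start of Mybph, 92 and 44 bases before that of Chrna1, 9 bases after that of Pln and 38 bases after that of Cdkn1a. Wsb1 has CACGTG at 219 and 183 bases and TGACGTCA at 38 bases before its start.

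Of the 77 genes, 56 had an entry in the RefSeq promoter table, with 73 windows of 300 bases in all. Both strands were searched. In the Pnpla3 window CAGCTG and TGACGTCA share 2 bases, so a single stretch counts for both. CACGTG was in 5 windows, or 6.85%, those of Wsb1, Slc41a3, Tceal7, Pim1 and D730003I15Rik, against 7.15% of all 32851 windows in the table. The related word CACGTT was in 4.11% of the windows against 4.68% of all. The core of the element that ROR and REV-ERB share, TAGGTCA or TGGGTCA, was in 2.74% against 6.45%, and the D-box words TTATGTAA, TTATGCAA and TTACGTAA were in none of the 73 against 1.78%. CAGCTG was in 18 windows of 17 genes, or 24.7%, against 16.3% of all windows. TGACGTCA was in those of Wsb1 and Pnpla3, 2.74% against 1.79%. These are descriptions of short windows: a match is not a bound site, and its absence says only that the letters are not in the window.

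Calcium and ion handling has 9 of the genes. All 9 were separated in sedentary muscle, as were 70 of all 77, against a background of 5.63%. These separations follow from how the genes were chosen. Mrln encodes myoregulin and Pln encodes phospholamban, small membrane proteins that both inhibit SERCA, the pump that returns calcium to the sarcoplasmic reticulum. Mrln stood at 41.3, 40.3, 51.6, 54.3 and 36.5 CPM in vehicle sedentary and at 159, 165, 148, 131 and 129 CPM in knockout sedentary samples. After training it was 89.3, 44.9, 41.4, 53.1 and 70.1 CPM with vehicle and 117, 254 and 208 CPM in the knockout samples. The groups did not overlap in either state, and the ratio of medians was 3.55-fold and 3.87-fold. Pln was lower in level. It stood at 7.95, 7.71, 6.26, 6.67 and 8.18 CPM in vehicle sedentary samples and at 14.1, 13.4, 17.5, 26.8 and 20.6 CPM in knockout sedentary samples. The trained values were 5.89, 0.737, 3.89, 3.41 and 4.43 CPM with vehicle and 23.4, 7.12 and 13.2 CPM in the knockout samples. Knockout-trained library 2 came closest to the vehicle samples. In GENCODE M21, 59.6% of the exon length of Pln overlaps other genes on the opposite strand, chiefly Cep85l, and since strandedness is not stated their reads cannot be told apart.

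Casq2, the calsequestrin of heart and slow fibres that stores calcium in the reticulum, stood at 33.2, 35.1, 33.2, 36.6 and 28.3 CPM in vehicle sedentary and at 68.4, 86.3, 96.1, 107 and 113 CPM in knockout sedentary samples. With training it stood at 32.9, 7.27, 26.8, 13.3 and 21.02 CPM with vehicle and 79.0, 62.3 and 65.6 CPM in the knockout samples. Every knockout value was above every vehicle value in each state. Slc8a1, the sodium-calcium exchanger of the plasma membrane, had medians of 16.7 and 45.7 CPM in sedentary and 16.5 and 30.7 CPM in trained muscle. Fgf11, an intracellular relative of growth factors that binds sodium channels, had medians of 1.98 and 10.65 CPM in sedentary muscle, 4.49-fold, and 2.51 and 7.86 CPM in trained muscle. Ank2, the ankyrin that anchors ion transporters, had a ratio of 1.90-fold and 1.93-fold in the 2 states. Atp1b4, of the sodium pump beta subunit family, the sodium-proton exchanger Slc9a2 and the magnesium transporter Slc41a3 had sedentary ratios of 2.57-fold, 1.87-fold and 1.97-fold.

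**Figure D3:**
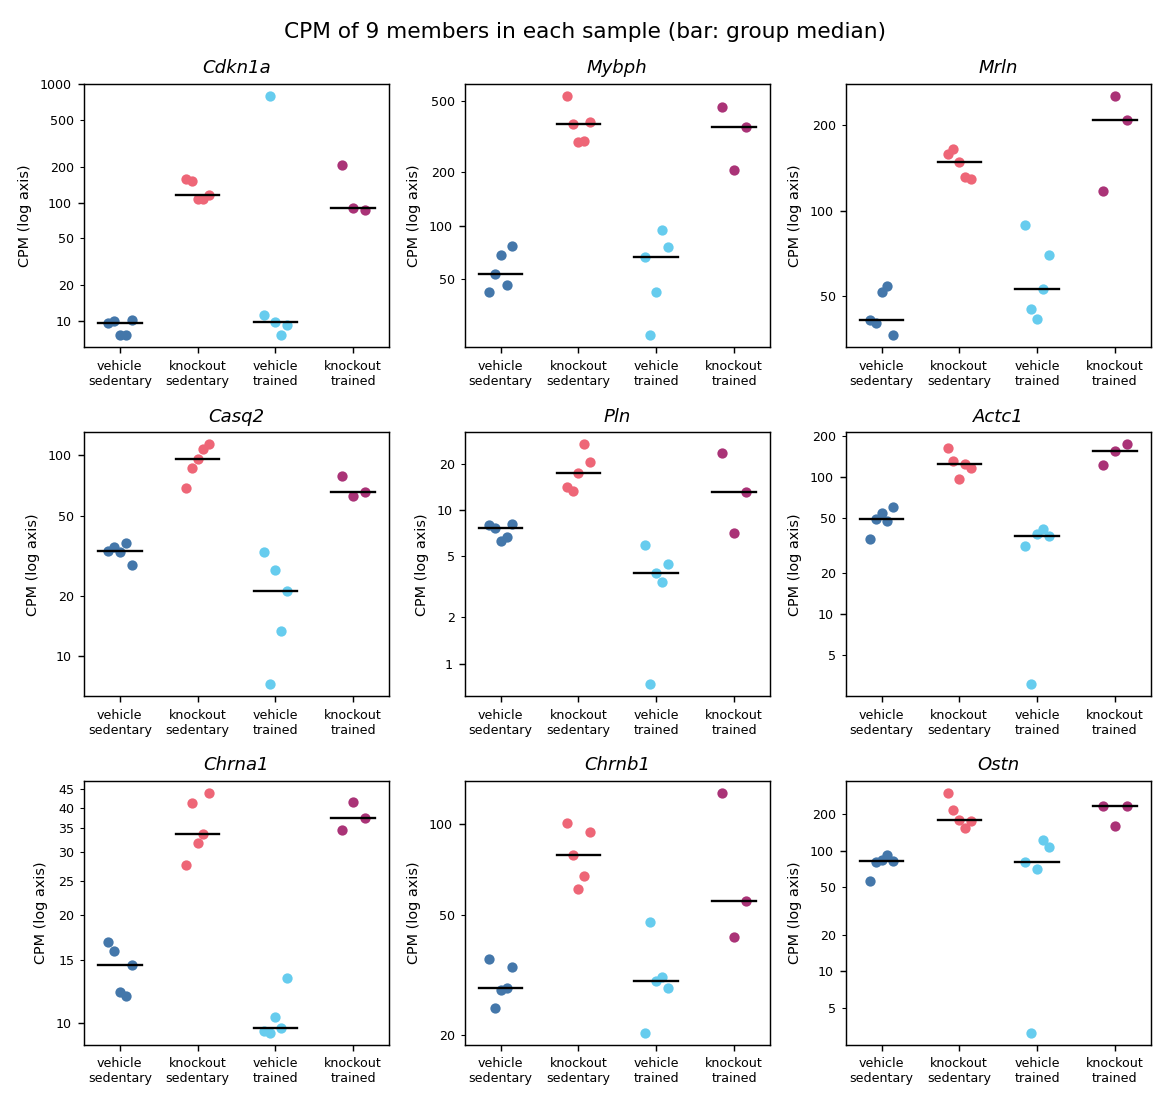
CPM on a log axis of 9 of the genes in each sample, with a point per sample and a bar at the median over the points of each group. Knockout points lie above vehicle points of the same training state in all 9 panels except where vehicle-trained library 2 sits high, at 801 CPM for Cdkn1a and 47.5 CPM for Chrnb1. This library is the lowest of its group for Mybph, Casq2, Pln, Actc1, Chrna1 and Ostn.

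The nerve-muscle junction is represented by Chrna1 and Chrnb1, subunits of the muscle acetylcholine receptor, and by Colq, the collagen tail that anchors acetylcholinesterase. Chrna1 stood at 16.9, 15.9, 12.2, 11.9 and 14.48 CPM in vehicle sedentary and at 27.6, 41.3, 31.8, 33.8 and 43.9 CPM in knockout sedentary samples. In trained muscle it was 9.49, 9.38, 10.4, 9.68 and 13.4 CPM with vehicle and 34.6, 41.4 and 37.5 CPM in the knockout samples. The groups were apart in both states, at 2.29-fold and 3.72-fold. Chrnb1 stood at 35.8, 24.6, 28.1, 28.7 and 33.5 CPM in vehicle sedentary and at 101, 79.2, 61.1, 67.2 and 93.9 CPM in knockout sedentary samples. After training it was 20.4, 47.5, 30.3, 31.1 and 28.7 CPM with vehicle and 127, 42.4 and 55.8 CPM in the knockout samples. Here the vehicle-trained library 2 value of 47.5 CPM lay above knockout-trained library 2. Chrnb1 and Fgf11 are neighbours on the same strand of chromosome 11, 0.124 kb apart. Colq had medians of 9.84 and 23.8 CPM in sedentary and 9.78 and 19.4 CPM in trained muscle, with no overlap in either.

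Among contractile and cytoskeletal genes, Mybph had the next largest ratio after Cdkn1a. It encodes myosin-binding protein H, a thick-filament protein. Mybph stood at 42.7, 53.3, 68.5, 46.5 and 76.9 CPM in vehicle sedentary and at 538, 372, 296, 299.9 and 382 CPM in knockout sedentary samples, with ratio 6.92-fold. With training it stood at 66.3, 24.3, 42.6, 94.7 and 76.0 CPM with vehicle and 462, 204 and 361 CPM in the knockout samples, with ratio 5.43-fold. The lowest knockout sample had more than 2 times the highest vehicle sample in each state. The overlap with Adora1, the adenosine receptor gene on the opposite strand, takes up 49.9% of the exon length of Mybph and 20.1% of that of Adora1. Strandedness is not stated, so reads in the shared part cannot be told apart. The ratios of Adora1, 4.42-fold and 3.25-fold, may therefore hold reads of Mybph. In trained muscle Adora1 overlapped, at 8.35 CPM in knockout-trained library 2 and 9.68 CPM in vehicle-trained library 4. Actc1, the alpha actin of heart and developing muscle, stood at 35.0, 49.3, 55.2, 47.8 and 60.5 CPM in vehicle sedentary and at 163, 133, 97.8, 125 and 117 CPM in knockout sedentary samples. In trained muscle it was 31.4, 3.04, 38.4, 41.8 and 37.4 CPM with vehicle and 124, 156 and 175 CPM in the knockout samples. Each state was separated, at 2.53-fold and 4.14-fold.

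Ttll7, a ligase that adds glutamate chains to tubulin, was the most abundant of the 77 genes. It stood at 321, 237, 285, 239.9 and 321 CPM in vehicle sedentary and at 895, 1099, 854, 1002 and 1061 CPM in knockout sedentary samples. After training it was 203, 366, 282, 287 and 282 CPM with vehicle and 765, 684 and 642 CPM in the knockout samples. The groups did not overlap, and the ratio was 3.51-fold in sedentary and 2.43-fold in trained muscle. Fam110b, a centrosome-linked protein, was low but even, with medians of 2.46 and 9.81 CPM in sedentary and 2.95 and 11.2 CPM in trained muscle. Pdzd7, a scaffold protein known from inner ear hair cells, had ratios of 1.80-fold and 2.27-fold.

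Signalling proteins and receptors make up 12 of the genes. Of these, 11 were separated in sedentary muscle, where 70 of all 77 were, against a background of 5.63%. Such counts follow from how the genes were chosen. Dupd1, a dual-specificity phosphatase found mainly in muscle, stood at 32.4, 34.9, 39.6, 27.9 and 42.5 CPM in vehicle sedentary and at 201, 172, 112, 136 and 150.4 CPM in knockout sedentary samples. With training it stood at 37.5, 46.6, 43.6, 45.2 and 47.1 CPM with vehicle and 221, 151 and 138 CPM in the knockout samples. The highest vehicle value, 47.1 CPM, was below the lowest knockout value, 112 CPM. Dusp5, a phosphatase of ERK kinases, was scarce, with medians of 0.333 and 2.98 CPM in sedentary and 0.509 and 1.85 CPM in trained muscle. In vehicle-trained library 2 it stood at 4.23 CPM, above every knockout trained sample. Ppp1r27, a regulatory subunit of protein phosphatase, had medians of 80.2 and 177 CPM in sedentary and 79.3 and 180.0 CPM in trained muscle. Its value in vehicle-trained library 2, 292 CPM, was likewise above every knockout trained sample.

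Wsb1, a substrate receptor of a ubiquitin ligase whose promoter is shown above, stood at 19.95, 16.6, 16.4, 23.4 and 19.6 CPM in vehicle sedentary and at 108, 71.8, 69.9, 75.8 and 95.4 CPM in knockout sedentary samples. In trained muscle it was 15.97, 27.1, 19.5, 22.03 and 23.9 CPM with vehicle and 88.8, 49.2 and 62.7 CPM in the knockout samples. It was separated in both states, at 3.79-fold and 2.95-fold. Rgs2, which shortens signals through G proteins, had ratios of 2.49-fold and 3.00-fold. Pim1, a survival kinase, had medians of 19.3 and 45.7 CPM in sedentary and 21.2 and 38.0 CPM in trained muscle, but stood at 461 CPM in vehicle-trained library 2. Gpc4 (a glypican of the cell surface), Inpp4b (a phosphoinositide phosphatase), Sh3bp5, Relt (a receptor of the TNF receptor family) and the adaptor Dok5 had sedentary ratios between 1.84-fold and 2.59-fold.

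Metabolic enzymes and lipid carriers make up 9 of the genes, with sedentary ratios between 1.87-fold and 2.48-fold. Gpt, the alanine aminotransferase that links pyruvate to amino acids, stood at 20.6, 22.2, 21.7, 20.03 and 20.04 CPM in vehicle sedentary and at 45.1, 37.5, 34.2, 42.3 and 39.7 CPM in knockout sedentary samples. After training it was 21.1, 12.5, 16.5, 15.4 and 14.8 CPM with vehicle and 55.0, 36.1 and 44.0 CPM in the knockout samples, with no overlap in either state. Agpat3, an acyltransferase of phospholipid synthesis, had medians of 106 and 199 CPM in sedentary and 85.7 and 168 CPM in trained muscle. Pnpla3, a lipid droplet protein, was scarce, at 0.928 to 1.55 CPM with vehicle and 1.73 to 5.06 CPM in the knockout in sedentary muscle, and its groups overlapped in trained muscle. Gstm7, a glutathione transferase, had ratios of 2.43-fold in sedentary and 4.13-fold in trained muscle. Gramd1b (a carrier of cholesterol between membranes), the flippase Atp8a2, Sat2, Abca4 and Cyp4f39 (a fatty acid hydroxylase) complete the group. Cyp4f39 was at 0.369 CPM in knockout sedentary sample 1 and at 0.461 CPM in the sample of knockout-trained libraries 1 and 4, the former below every vehicle sample. The mitochondrial genes Clpx, the unfolding subunit of a matrix protease, and Miga2, which promotes mitochondrial fusion, had sedentary ratios of 2.04-fold and 1.99-fold.

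Of 3 genes for secreted proteins, Ostn encodes osteocrin (musclin), a peptide that muscle releases. Ostn stood at 55.8, 80.3, 83.1, 93.0 and 82.1 CPM in vehicle sedentary and at 299, 218, 179, 155 and 177 CPM in knockout sedentary samples. With training it stood at 80.7, 3.10, 70.8, 123 and 108 CPM with vehicle and 233, 159.7 and 234 CPM in the knockout samples. The groups were apart in both states. Pla2g7, which breaks down platelet-activating factor, had medians of 83.2 and 268 CPM in sedentary and 73.0 and 187 CPM in trained muscle. It overlaps the antisense gene 1700071M16Rik, itself among the 77 at 5.04-fold and 2.83-fold. Agt, the precursor of angiotensin, had ratios of 2.50-fold and 2.20-fold. Membrane traffic is represented by 7 genes, Sytl2, Rab11b, Rims4, Exoc3l4, Cpne2, Efr3b and Golga7b. Rab11b, a small GTPase of recycling endosomes, was the steadiest, at 52.7 to 60.9 CPM with vehicle and 105 to 116 CPM in the knockout in sedentary muscle. Its processed pseudogene Rab11b-ps2 and its overlapping neighbour Gm17251 are both among the 77, and reads could be shared among the 3. Cpne2, a copine that binds membranes when calcium rises, had medians of 9.75 and 36.7 CPM in sedentary muscle, the highest ratio of the 7 at 3.63-fold.

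Ighm, Trdc, Csf2rb2 and Apold1 are known from blood or vessel cells. Ighm, the constant region of the immunoglobulin M heavy chain, stood at 235, 106, 181, 151 and 149 CPM in vehicle sedentary and at 254, 296, 305, 319.9 and 276 CPM in knockout sedentary samples. In trained muscle it was 166, 14.1, 143, 179 and 186 CPM with vehicle and 238, 697 and 324 CPM in the knockout samples. The sedentary groups were close at their edges, 235 CPM against 254 CPM, and vehicle-trained library 2 and knockout-trained library 2 were the lowest and the highest of all 18. Trdc, the constant region of the T cell receptor delta chain, had medians of 0.835 and 3.69 CPM in sedentary and 0.859 and 3.87 CPM in trained muscle. Summed smooth muscle and pericyte markers (6 of 6 in the table) ran from 428 to 532 CPM with vehicle and from 528 to 683 CPM in the knockout in sedentary muscle, and from 383 to 539 and 527 to 642 CPM in trained muscle. The 6 satellite cell markers summed to 97.9 to 116 and 102 to 136 CPM in sedentary and to 78.9 to 93.5 and 82.6 to 147 CPM in trained muscle. Macrophage markers (8 of 8) summed to 60.1 to 242 and 93.7 to 259 CPM in sedentary vehicle and knockout muscle, and to 168 to 439 and 59.0 to 331 CPM in trained muscle. Fibroblast markers (7 of 7) summed to 1010 to 2218 and 1269 to 2380 CPM, and to 1695 to 3062 and 969.9 to 2057 CPM. Adipocyte markers (7 of 7) summed to 225 to 470.4 and 309 to 388 CPM, and to 172 to 1094 and 379 to 721 CPM. Blood markers (6 of 6) summed to 370.3 to 864 and 348 to 843 CPM, and to 514 to 2051 and 429 to 2893 CPM. Endothelial markers (7 of 7) summed to 187 to 279 and 228 to 283 CPM, and to 177 to 236 and 193 to 294 CPM. These ranges of vehicle and knockout samples overlap for all these lists in both states. A single marker can differ from the sum of its list. Cdh15 (satellite cell) was at 14.0 to 17.8 and 19.7 to 22.6 CPM, and at 11.2 to 22.1 and 13.4 to 18.9 CPM. Egfl7 (endothelial) was at 23.5 to 34.2 and 24.1 to 34.9 CPM, and at 17.2 to 24.0 and 27.3 to 39.1 CPM. The part of these cells in the levels of the 77 genes was not tested.

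The other 15 genes are RNA genes, pseudogenes or genes with no settled function. Their ratios ran from 1.78-fold to 5.04-fold in sedentary muscle. Srrm4os, an RNA gene antisense to Srrm4, stood at 28.9 CPM in knockout sedentary sample 1 and at 8.14 to 11.8 CPM in the other 4, against 1.62 to 3.97 CPM with vehicle. Ypel2, of a family of small zinc-binding proteins, had medians of 20.3 and 50.04 CPM in sedentary and 19.9 and 43.7 CPM in trained muscle, and Hhatl, a relative of an acyltransferase that modifies hedgehog, had medians of 74.2 and 138 CPM and 62.1 and 141 CPM. Gm973, Gm12199, Gm17251 and 1700071M16Rik had ratios between 2.7-fold and 5.04-fold in the 2 states, from vehicle medians of 2.24 CPM or less. Across all 77, exons of 30 genes overlap another gene in GENCODE M21, 26 of them on the opposite strand, which makes their counts uncertain where the strand of a read was not used, a point the sources leave unstated. The overlap takes up 46.1% of the exon length of Hectd2os, an RNA gene antisense to Hectd2.

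The rule set no limit on a training effect, and training effects were tested. Yet the medians of all 4 groups entered the rule, so the training effects of the 77 are not independent of the choice. A lean of the 77 in 1 direction is thus no evidence of its own. In vehicle muscle, none of the 77 genes passed an adjusted p of 0.05 by edgeR's quasi-likelihood test with Benjamini-Hochberg adjustment over 14359 genes, and neither did any other gene, a background of 0%. DESeq2 also called none of the 77 and no gene in all. At an unadjusted p under 0.05 there were 19 of the 77, 10 higher and 9 lower, where 15.2% of all genes were at that level. The median log2 training effect was 0.05 over the 77 and 0.03 over all genes. The 5 genes with the smallest p were Cdkn1a, Inpp4b, Efr3b, Pim1 and Gm10382, all at an adjusted p of 0.272 by edgeR. For 3 of these the estimate rested on vehicle-trained library 2. The log2 change of Cdkn1a was 4.34 ± 1.15 (SE) with it and 0.10 without it, that of Pim1 was 2.64 with and 0.07 without, and that of Gm10382 was 2.68 with and 0.13 without. Inpp4b and Efr3b had log2 changes of -0.71 and -0.69 with this library and of -0.65 and -0.54 without it.

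Without vehicle-trained library 2, none of the 77 genes and no gene in all passed the same edgeR test in vehicle muscle. At an unadjusted p under 0.05 there were then 18 of the 77, 2 higher and 16 lower, with 13% of all genes at that level. Whatever the p, the log2 change was positive for 46.8% of the 77 and for 49.5% of all genes. With all samples, Mafa, Pln, Efr3b, Ank2 and Hhatl were lower in every trained than in every sedentary vehicle sample, and none of the 77 was separated upward. The background was 2.73% of genes separated downward and 0.251% upward. Without library 2, Agpat3, Slc9a2 and Clpx joined them, making 8 genes, with a background of 4.35% downward and 0.557% upward. Efr3b, which holds a lipid kinase at the plasma membrane, stood at 8.12, 7.52, 6.53, 9.24 and 9.90 CPM in sedentary and at 5.75, 2.64, 5.29, 5.52 and 5.68 CPM in trained vehicle samples. None of these separations passed the test across all genes. Their direction is no evidence of its own, since the vehicle medians of both states entered the rule.

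In knockout muscle, the same edgeR test called none of the 77 genes and no gene in all, a background of 0%, and the smallest adjusted p among the 77 was 0.232. DESeq2 called none of the 77 and 173 genes in all. At an unadjusted p under 0.05 there were 5 of the 77, 4 higher and 1 lower, against 9.71% of all genes. These were Hsbp1l1, Mrln, Gpt, Slc8a1 and Gstm7, with log2 changes of 1.27, 0.56, 0.31, -0.45 and 0.59. Hsbp1l1, a small relative of a heat shock factor binding protein, stood at 2.48, 1.20, 2.35, 2.17 and 1.63 CPM in knockout sedentary and at 2.78, 6.27 and 3.87 CPM in knockout trained samples. Hsbp1l1 and Gstm7 were separated upward (background 2.09%) and Pla2g7, Ttll7 and Auts2 downward (background 9.77%). When the sample of knockout-trained libraries 1 and 4 was left out, 397 genes (2.76%) were called by edgeR, 2 of the 77 among them. These were Mrln, with a log2 change of 0.87 ± 0.212 (SE) and an adjusted p of 0.0376, and Hsbp1l1, with 1.56 ± 0.402 (SE) and an adjusted p of 0.0477. That fit left 2 knockout trained samples. Without vehicle-trained library 2, 121 genes (0.843%) were called in knockout muscle and none of the 77.

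**Figure D4:**
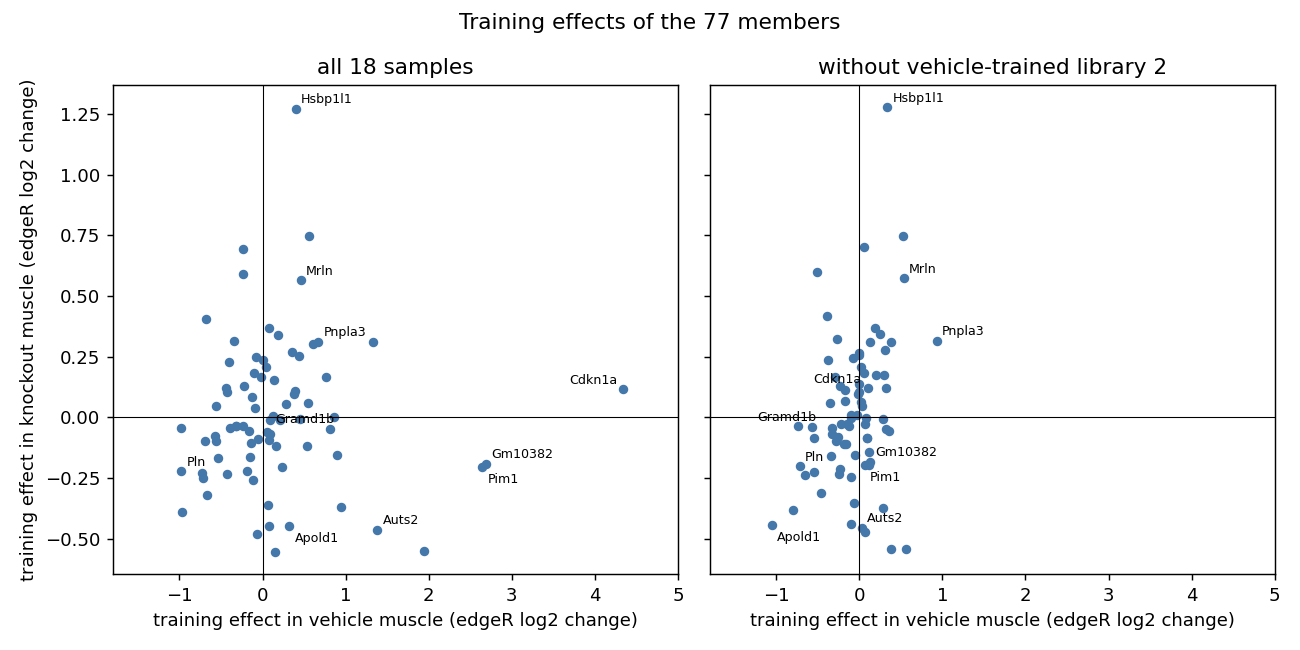
Each point is 1 of the 77 genes, with edgeR's log2 training effect in vehicle muscle on the x axis and in knockout muscle on the y axis, from all 18 samples (left) and without vehicle-trained library 2 (right). The 6 genes farthest right with that library are Cdkn1a, Gm10382, Pim1, Dusp5, Auts2 and Cpne2, and without it the x values of all 77 run from -1.05 to 0.93.

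The ratio of knockout to vehicle was smaller in trained than in sedentary muscle for 42 of the genes and larger for 35. The median difference of the log2 ratios was -0.02, with a range from -0.84 to 0.77. By more than 0.5, it was larger in trained muscle for 6 genes, Gstm7, Actc1, Chrna1, Pln, Gpt and 2310015K22Rik. For Pln the vehicle median was 7.71 CPM in sedentary and 3.89 CPM in trained muscle, and for Chrna1 it was 14.48 and 9.68 CPM. By more than 0.5, it was smaller for 8 genes, Dusp5, 1700071M16Rik, Cpne2, Auts2, Fgf11, Slc8a1, Ttll7 and Chrnb1. The rule set limits on both ratios, so no test of their difference is given. Knockout trained samples also differed among themselves. The sample of libraries 1 and 4 had the highest value of its group for 53 of the 77 genes and knockout-trained library 2 the lowest for 49. No such count over all genes is given here, so these counts do not set the 77 apart from other genes.

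Other genes of the pathways give the setting. Of 22 other denervation and junction genes tested, edgeR's quasi-likelihood test with Benjamini-Hochberg adjustment called Sln higher in knockout sedentary muscle and Etv5 higher in knockout trained muscle, and none lower. Sln encodes sarcolipin, another inhibitor of the calcium pump, and was left out of the 77 by name. It met the limits of the rule, so its calls follow from the values the rule used and are no evidence of their own. Without vehicle-trained library 2 the calls in sedentary muscle were 5 higher (Myog, Myod1, Gadd45a, Ankrd1 and Sln) and 1 lower (Hdac9), and in trained muscle 6 higher (Ache, Etv5, Ufsp1, Gadd45a, Ankrd1 and Sln) and 1 lower (Hdac9). The backgrounds over all genes were 2.33% in sedentary and 3.29% in trained muscle, and 6.98% and 8.66% without this library. The median log2 difference of the 22 genes was 0.21 in sedentary and 0.22 in trained muscle, against 0.01 and -0.03 over all genes, and 0.37 in trained muscle without this library. Of 12 other slow-fibre contractile genes, beside Pln and Casq2, none was called in either state. Their median log2 difference was -0.18 in sedentary and 0.58 in trained muscle, and without library 2 Tnni1 was called higher in trained muscle. Of 30 lipid genes other than Pnpla3, only Dgat2 was called in sedentary muscle, lower, while 7 were called higher (Acadm, Hadha, Hadhb, Fabp3, Acsl1, Plin5 and Acot2) and 1 lower (Acsl3) in trained muscle. Without library 2, Acadm, Plin5 and Scd2 were called higher and Dgat2 lower in sedentary muscle, and 9 were called higher and 1 lower in trained muscle. Of 19 core clock genes, 2 were called higher (Clock and Npas2) and 6 lower (Per2, Nr1d2, Dbp, Tef, Ciart and Bhlhe40) in sedentary muscle. Without library 2 these counts were 4 higher (Arntl, Clock, Npas2 and Nfil3) and 12 lower. Npas2 and Nfil3 also met the limits of the rule, so their calls follow from the values it used. In trained muscle 1 core clock gene was called higher (Clock) and 5 lower. Without library 2 the trained counts were 5 higher and 11 lower. No gene of these 4 lists was called for a training effect in either genotype. By edgeR, no gene in all was called for a difference of the knockout effects between the 2 training states, with or without library 2.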

How the data were processed

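RNA sequencing of 20 mouse muscle libraries, 5 in each of 4 groups, was analysed from the gene table the authors deposited, which holds estimated counts that need not be whole. Per the submitters' processing notes, STAR 2.7.8a, Partek and DESeq2 were used and the builds mm10 and GRCm39 are both named; the role of each, the counting step and strandedness are not given in the sources used here. From the deposited estimated counts, CPM was computed on column sums (0.5 added for log2 ratios). Counts were rounded to whole numbers and fitted in edgeR 4.0.16 (R 4.3.3) by the quasi-likelihood test with TMM scaling, 4 group means and Benjamini-Hochberg adjustment, over the 14359 genes at 1 CPM or more in at least 5 libraries. Near-identical libraries were summed for tests and averaged for CPM, while the medians that chose the genes ran over all 5 columns of each group. The test was checked on simulated data.

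The genes described, the gene lists and the tests were chosen with earlier results of these data known. Genes named are the 20 with the largest smaller ratio, those on pathway lists, the 5 highest in knockout sedentary muscle, the 5 nearest the limit on each side, those leading a training contrast and those whose place turns on 1 library; others, and the grouping by function, were chosen after their values were seen. Alternatives tried were DESeq2 1.42.0, upper-quartile scaling, other filters, 20 separate libraries, a replicate block, 2-group fits, leaving out each sample, and other forms of the rule. After seeing the data, the list counts and the trained separation were added without vehicle-trained library 2. Annotation came from GENCODE M21 and promoters from RefSeq (GRCm38.p6). The levels of lymphocyte markers and 1 exon overlap are not reported here.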

Additional observations from a re-analysis of the deposited data

Results flagged for a closer look

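In groups of 5 samples, a sample was picked out when its gap to the nearest other, divided by the range of the group, passed Dixon's critical value. Of 267 groups tested, 39 had such a sample, where chance picks about 1 in 20 groups, or 13.35. Of the 39, 25 were in vehicle-trained library 2. It was high for Cdkn1a (801 CPM), Pim1 (461 CPM), Slc41a3 (304 CPM), Ppp1r27 (292 CPM), Clpx (148 CPM), Agpat3 (124 CPM), Gramd1b (106 CPM), Auts2 (83.0 CPM), Cpne2 (66.9 CPM) and Sh3bp5 (57.1 CPM). It was also high for Agt (34.7 CPM), Rgs2 (21.1 CPM), Gm10382 (18.3 CPM), Apold1 (11.7 CPM), Tead4 (9.58 CPM), Rims4 (9.38 CPM), Dusp5 (4.23 CPM), Igf2bp2 (4.23 CPM) and Trdc (2.11 CPM), and for the targeted gene Arntl (132 CPM). It was low for Ighm (14.1 CPM), Miga2 (3.30 CPM), Actc1 (3.04 CPM), Efr3b (2.64 CPM) and Fgf11 (0.330 CPM).

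The other 14 were spread over 8 samples. Knockout sedentary sample 1 was high for Rgs2 (29.0 CPM), Srrm4os (28.9 CPM), Arntl (18.9 CPM), Golga7b (17.7 CPM) and E2f2 (14.4 CPM) and low for Cyp4f39 (0.369 CPM). Knockout sedentary sample 2 stood apart for Csf2rb2 (16.3 CPM) and Abca4 (3.85 CPM), sample 3 for Colq (20.5 CPM) and sample 5 for Igf2bp2 (5.96 CPM). Among vehicle samples, sedentary sample 1 stood apart for Rab11b (52.7 CPM), sedentary sample 2 for Pdzd7 (8.52 CPM), sedentary sample 3 for Tead4 (2.77 CPM) and trained sample 5 for Chrna1 (13.4 CPM).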

How the results depend on the processing

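The number of the 77 genes called for training stayed at 0 in vehicle muscle under every alternative, and in knockout muscle ran from 0 to 2 when samples were left out one at a time, the 2 coming without knockout-trained libraries 1 and 4. Over all genes, leaving out samples gave 0 to 1 calls for training in vehicle muscle and 0 to 397 in knockout muscle (397 without knockout-trained libraries 1 and 4, and 121 or 45 when vehicle-trained library 2 or 1 was dropped). The count in knockout muscle was 49 with 20 separate libraries and 173 with DESeq2. For the knockout effect in sedentary muscle, 334 genes were called, against 537 with DESeq2, 1177 with only the 2 groups in the fit and 251 to 1002 with a sample left out, the highest without vehicle-trained library 2. In trained muscle 473 were called, against 1225 with separate libraries, 907 with DESeq2, 20 with only the 2 groups and 177 to 1244 with a sample left out (1244 without vehicle-trained library 2, 299 without knockout-trained library 2, 177 without libraries 3 and 5). Of the 77, 9 were called in trained muscle with only the 2 groups, against 20 of all 14359 tested genes. The rule chose the 77 by this same difference. Their count therefore shows only the dependence on processing and is no evidence of its own. DESeq2 called 29 genes for the interaction, edgeR none. Causes were not tested. With a replicate block and separate libraries, 980 genes were called in trained muscle, 336 in sedentary muscle and 0 for training, but the numbers do not pair the samples: same-numbered samples correlated at -0.34 to 0.29, and 10 of 60 correlated best with their own number. Means in place of medians found 76 genes, 60 of them among the 77, averaging the near-identical libraries kept 73 of the 77, a pseudocount of 1 kept 66 and TMM library sizes kept 74. A limit of 1 left 45 genes, all 45 among the 77, and leaving out a library found 69 to 95 genes, with 69 to 77 of the 77 among them. Leaving out any 1 of several libraries ended the place of Hsbp1l1 (6 libraries), Apold1, Gm39469, Sat2, Csf2rb2 and Abca4 (5 each). The same held for Exoc3l4, D730003I15Rik and Pim1 (4 each), Ighm, Igsf1, Bcl6b and Rims4 (3 each), and Hectd2os, Dok5 and Pdzd7 (2 each).

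Limits are the 3 knockout trained samples left after near-identical libraries were joined, vehicle-trained library 2, levels under 5 CPM for 17 genes, unknown strandedness, and a targeted gene that does not check the labels.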
